A study of Mus musculus with 3 samples.

Results

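Sterol and fatty acid synthesis genes of mouse macrophages are described here as a set of 35: 18 enzymes of cholesterol synthesis, 6 regulators of the pathway and 11 enzymes that make, desaturate or lengthen fatty acids. The genes were taken by symbol from a written list, out of 55536 annotated genes, and every one of the 35 was found. The data are polyA RNA-seq of bone-marrow-derived macrophages of the inbred mouse strain C57BL/6J, at 0 minutes of a treatment with lipid A at 100 ng/ml. Lipid A, the membrane anchor of bacterial lipopolysaccharide, is sensed by Toll-like receptor 4, and time 0 is the state before stimulation. The 3 libraries form 1 group, biological replicates 1, 2 and 3, with no second group. They share 1 donor record, age and sex were not collected, and separate animals are not stated, so the spread between libraries may be partly technical. With 1 group there was no contrast to test, so levels and their spread are given without p-values.

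Cells build cholesterol from acetyl-CoA by the mevalonate pathway, which leads through isoprenoid diphosphates to squalene, and then by a chain of sterol steps from lanosterol to cholesterol. Fatty acid synthesis starts from the same acetyl-CoA. Both are switched on by the sterol regulatory element-binding proteins (SREBPs), membrane-bound transcription factors that SCAP escorts to the Golgi for cleavage when sterols are low, and that INSIG proteins hold back when sterols are high. In macrophages, which take up cholesterol from engulfed cells and lipoproteins, the liver X receptors (LXRs) respond to oxidised sterols and drive cholesterol export.

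The libraries differed beyond depth. They held 27946070, 29779410 and 53447437 expected counts in replicates 1, 2 and 3, yet replicate 3, the deepest, had the fewest genes at or above 1 TPM (a level corrected for transcript length and scaled to the same sum in every library), with 11135 against 11591 in replicate 1 and 11648 in replicate 2. A count of 0 in these libraries allows up to 3 counts, or 0.107, 0.101 and 0.0561 CPM (read counts scaled to a common library size), for counting error only. All 10 macrophage markers checked were at or above 1 TPM in every library, with Lyz2 averaging 18742 TPM. All 6 adipocyte and all 5 hepatocyte markers were below 1 TPM everywhere, and the highest of these 11 was Retn at 0.06 TPM in replicate 1. The summed level of 10 neutrophil markers was 198, 51.7 and 363 TPM in replicates 1, 2 and 3, while Ly6g, a defining surface marker of neutrophils, was at 0 in all. In bulk RNA, fewer cells of a type and less RNA per cell cannot be told apart.

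The genes were expressed in the middle of the range of detected genes, and all of the set except 1 gene reached 1 TPM in every library. Their median level was 20.1 TPM (the median over the set of each gene's mean), against 18.6 TPM over the 10548 genes at or above 1 TPM in every library. The exception was Me1, malic enzyme, with 2.09, 0.74 and 0.55 TPM in replicates 1, 2 and 3. The set took 0.269%, 0.226% and 0.123% of all counts in the 3 libraries. The highest level belonged to Msmo1 at 131 ± 63.0 TPM (SD, n = 3), followed by Fdps at 80.7 ± 55.0, Hmgcs1 at 75.6 ± 25.5, Scd2 at 71.9 ± 32.1 and Acly at 70.0 ± 19.2 TPM. Neighbours in this order differed by less than their SD.

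**Figure D1:**
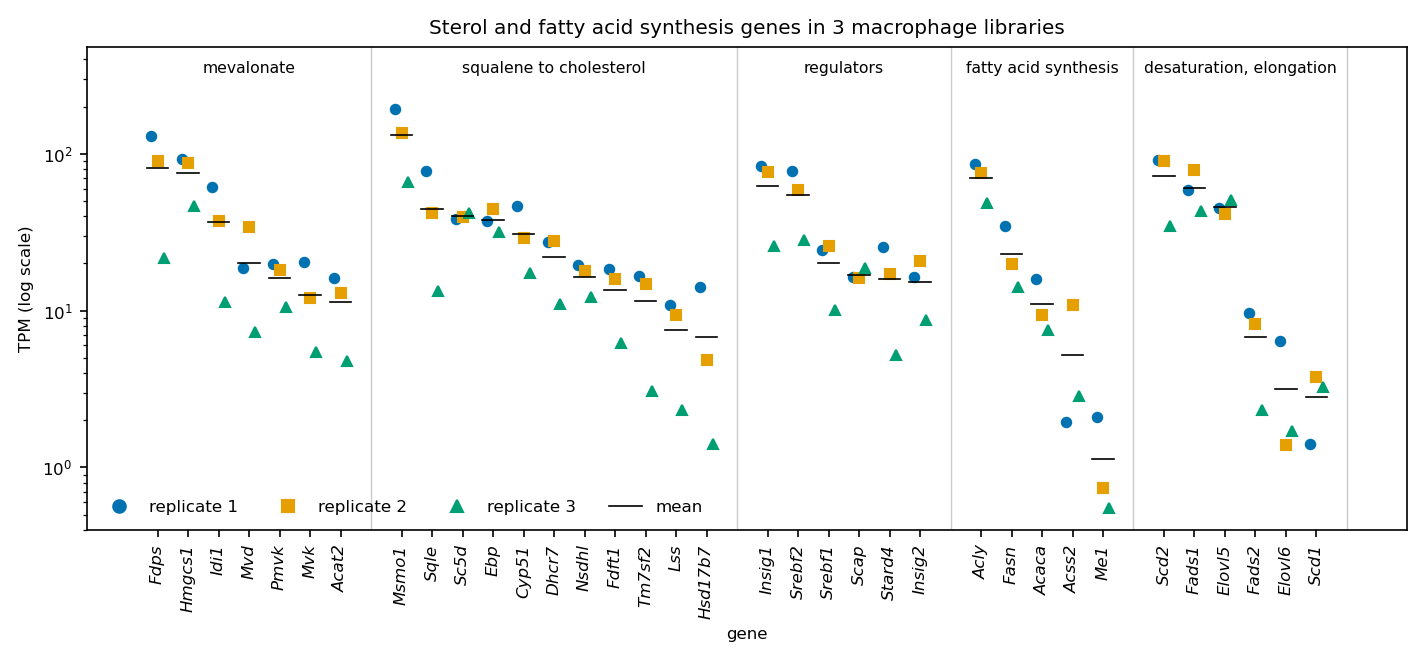
Level of each of the 35 genes in TPM (log axis) in replicates 1, 2 and 3, with the mean as a bar, grouped by role and ordered by mean within a role. For most genes the triangle of replicate 3 lies lowest, as for Fdps at 21.8 TPM; Sc5d, Scap and Elovl5 are among those where it does not.

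Promoter sequences of 4 starts are shown for genes that stand out in the set: Hmgcs1 held the sterol regulatory element core, Msmo1 had the highest level, and Srebf1 has separate starts for the long and the short protein form described below; a further Srebf1 window is not shown. The windows come from RefSeq on GRCm38.p6, span 250 bases before to 50 bases after the annotated start, and run 5′ to 3′ on the gene's strand. Capitals mark matches on either strand. The motifs searched were the sterol regulatory element core TCACNCCAC, the NF-Y box CCAAT, which reads ATTGG in reverse complement, and the GC box GGGCGG. The E-box CACGTG was searched too and occurs in none of these 4. The first window lies on the plus strand and the others on the minus strand.
Hmgcs1, chr13:119690101-119690400: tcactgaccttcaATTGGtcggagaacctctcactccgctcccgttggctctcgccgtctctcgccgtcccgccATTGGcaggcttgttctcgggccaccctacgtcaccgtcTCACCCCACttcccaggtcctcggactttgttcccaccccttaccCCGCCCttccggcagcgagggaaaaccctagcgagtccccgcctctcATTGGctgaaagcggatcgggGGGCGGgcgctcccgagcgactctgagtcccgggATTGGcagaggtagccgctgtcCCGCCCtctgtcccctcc
Msmo1, chr8:64733529-64733828: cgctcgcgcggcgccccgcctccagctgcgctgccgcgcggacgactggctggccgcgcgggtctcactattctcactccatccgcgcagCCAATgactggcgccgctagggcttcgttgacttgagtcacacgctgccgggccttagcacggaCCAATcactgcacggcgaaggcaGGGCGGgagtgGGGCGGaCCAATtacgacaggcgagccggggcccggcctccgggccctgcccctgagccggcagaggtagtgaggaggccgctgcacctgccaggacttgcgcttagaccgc
Srebf1, start of the long form, chr11:60220578-60220877: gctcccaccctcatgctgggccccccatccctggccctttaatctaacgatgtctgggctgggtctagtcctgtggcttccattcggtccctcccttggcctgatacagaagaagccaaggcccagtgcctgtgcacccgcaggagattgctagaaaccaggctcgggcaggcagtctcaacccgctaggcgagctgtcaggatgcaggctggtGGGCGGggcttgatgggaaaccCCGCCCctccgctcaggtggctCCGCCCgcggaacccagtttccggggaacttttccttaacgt
Srebf1, start of the short form, chr11:60210422-60210721: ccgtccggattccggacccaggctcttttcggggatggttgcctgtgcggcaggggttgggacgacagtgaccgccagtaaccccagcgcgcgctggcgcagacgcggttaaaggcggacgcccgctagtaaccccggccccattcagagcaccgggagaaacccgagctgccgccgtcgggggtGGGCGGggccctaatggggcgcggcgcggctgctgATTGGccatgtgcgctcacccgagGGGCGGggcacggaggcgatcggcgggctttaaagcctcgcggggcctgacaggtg
The Hmgcs1 window held 1 sterol regulatory element core, 4 CCAAT boxes and 3 GC boxes. The Msmo1 window held 3 CCAAT boxes and 2 GC boxes. Of the Srebf1 windows, the one for the long form held 3 GC boxes and no CCAAT box, and the one for the short form 2 GC boxes and 1 CCAAT box.

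Over the set, 28 of 35 genes matched a promoter window in that table. The core TCACNCCAC was found in 1 of the 28 genes (3.57%, Hmgcs1), against 1.44% of all 27025 genes with windows. CCAAT was found in 23 of 28 (82.1%), against 41.1% of all genes. GGGCGG was found in the same number, 23 of 28, against 38.2% of all genes, and the E-box in 6 of 28 (21.4%), against 8.09%. These are matches of letters in a fixed window, not binding sites, and none of the motifs contains another. A gene can have several windows. By window, CCAAT was found in 24 of 37 of the set and GGGCGG in 27 of 37, against 37.4% and 35.7% of all windows. The 27025 genes were not limited to those detected in these libraries. Among the 28 genes, the 23 with a CCAAT match had a median log2 ratio in replicate 3 (explained below with the library ratios) of -0.89, and the 5 without one, Acat2, Scap, Acaca, Elovl6 and Fads2, had -0.73.

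The mevalonate enzymes were all present, from 11.3 TPM for Acat2 to 80.7 TPM for Fdps, and all 7 had their lowest level in replicate 3. In TPM, 49.5% of all tested genes, those passing a filter on low counts, were lowest there. Hmgcs1, which makes HMG-CoA and whose promoter is printed above, had 93.2, 87.1 and 46.3 TPM in replicates 1, 2 and 3. Idi1, the isomerase that makes the activated isoprene unit, had 61.2, 37.2 and 11.4 TPM. Fdps, which joins such units into farnesyl diphosphate, had 131, 89.5 and 21.8 TPM. In these 3 genes replicate 3 stood below both other libraries, by the widest margin in Fdps, where replicate 1 was 5.99-fold above replicate 3. The kinases Mvk and Pmvk had 20.5, 12.1 and 5.43 TPM and 20.0, 18.1 and 10.5 TPM, and Acat2, the cytosolic thiolase of the first step, had 16.2, 12.9 and 4.76 TPM. Mvd, the decarboxylase that follows the kinases, departed from the others in being highest in replicate 2, with 18.6, 34.4 and 7.29 TPM.

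Among the 11 enzymes from squalene to cholesterol, 9 were lowest in replicate 3 on the count scale described below, and the other 2, Ebp and Sc5d, were not. On that scale 32.7% of all tested genes were lowest in replicate 3. Sqle, squalene epoxidase and a control point of the pathway, had 77.8, 41.7 and 13.3 TPM in replicates 1, 2 and 3. Msmo1, which oxidises the methyl group that is removed on the way from lanosterol, had 192, 136 and 66.1 TPM. Cyp51, the lanosterol demethylase, had 46.7, 28.9 and 17.3 TPM. All 3 were highest in replicate 1 and lowest in replicate 3. Hsd17b7, a ketoreductase of the same demethylation steps, spread most, with 14.2, 4.84 and 1.41 TPM and a coefficient of variation of 97.3%. Sc5d, a sterol desaturase near the end of the chain, spread least, with 38.2, 39.8 and 41.7 TPM and a coefficient of variation of 4.42%. Ebp, the sterol isomerase that acts just before Sc5d, had 37.3, 44.2 and 31.7 TPM. Late steps were thus not all alike, since Dhcr7, a late sterol reductase, had 27.6, 27.8 and 11.0 TPM.

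Of the other sterol enzymes, Nsdhl, a dehydrogenase of the demethylation steps, had 19.4, 17.8 and 12.2 TPM in replicates 1, 2 and 3. Lss, lanosterol synthase, had 10.8, 9.32 and 2.32 TPM, and Tm7sf2, a sterol reductase, had 16.5, 14.7 and 3.08 TPM. Fdft1, squalene synthase, had 18.3, 15.9 and 6.22 TPM. The Fdft1 values are uncertain, because 774 of its 4227 exonic bases (18.3%) lie antisense to exons of Ctsb, which reached 14738 TPM in these libraries, and whether counting used strand is not given in the sources used here. Tm7sf2 shares 12.1% of its exonic bases with Vps51 on the same strand, which reached 41.2 TPM. In all, 13 of the 35 genes share some exonic bases with another gene.

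Of the regulators, Insig1 and Srebf2 were the most abundant, and all 6 were lowest in replicate 3 on the count scale, against 32.7% of all tested genes. Srebf2, which encodes SREBP-2, the main activator of sterol genes, had 78.2, 58.5 and 28.3 TPM in replicates 1, 2 and 3. Insig1, which retains SCAP in the endoplasmic reticulum and is itself a known SREBP target, had 84.2, 76.1 and 25.8 TPM. Its relative Insig2 had 16.3, 20.9 and 8.67 TPM, so the ratio of Insig1 to Insig2 was 5.15, 3.65 and 2.97. Stard4, a carrier of cholesterol between membranes, had 25.5, 17.1 and 5.25 TPM. Srebf1 had 24.3, 25.9 and 10.1 TPM. Scap was the exception in TPM, with 16.3, 16.0 and 18.6, while its scaled counts were 40.1, 38.9 and 32.9 CPM. Replicate 3 was thus highest for Scap in TPM and lowest in CPM, and the short transcript Scap-202, described with the retained introns, made up much of its TPM there.

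Enzymes of fatty acid synthesis covered a wide range of levels and did not share 1 order of the libraries. Acly, which makes cytosolic acetyl-CoA from citrate, had 85.9, 75.4 and 48.7 TPM in replicates 1, 2 and 3. Acaca, acetyl-CoA carboxylase, had 16.0, 9.39 and 7.53 TPM, and Fasn, fatty acid synthase, had 34.5, 19.7 and 14.2 TPM. These 3 were highest in replicate 1. Acss2, which makes acetyl-CoA from acetate, instead had 1.96, 10.9 and 2.85 TPM, with replicate 2 alone high.

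The desaturases and elongases were dominated by Scd2, Fads1 and Elovl5. Scd2, a stearoyl-CoA desaturase, had 91.3, 89.7 and 34.8 TPM in replicates 1, 2 and 3, against 1.41, 3.76 and 3.28 TPM for its relative Scd1, a ratio of 64.7, 23.8 and 10.6. Of the desaturases of polyunsaturated fatty acids, Fads1 was the higher: Fads1 had 58.6, 78.8 and 43.3 TPM and Fads2 had 9.71, 8.22 and 2.34 TPM, a ratio of 6.04, 9.59 and 18.5. Elovl5, an elongase of polyunsaturated fatty acids, had 45.1, 41.2 and 50.5 TPM and was the only one of the 35 highest in replicate 3 on the count scale. Elovl6, an elongase of saturated fatty acids, had 6.44, 1.40 and 1.72 TPM, with replicate 1 alone high. The split of reads between close relatives such as Scd1 and Scd2 rests on the authors' estimate.

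Set beside all genes, most of the sterol genes and their regulators were low in replicate 3. For each gene the counts were scaled by TMM factors (trimmed mean of M-values, which equalises libraries over most genes), and each library was divided by the geometric mean of the other 2, with 11886 genes passing the filter on low counts, all 35 among them. In replicate 3 the median log2 ratio of the 35 was -1.05, against 0.01 for all tested genes. There 18 of 35 (51.4%) were more than 2-fold lower, against a background of 7.80% of all tested genes, and 0 of 35 were more than 2-fold higher, against 6.09%. The median without replicate 1 was -0.85 and without replicate 2 it was -1.28. Tm7sf2 was 4.42-fold lower in replicate 3 than the mean of the other 2, Hsd17b7 4.37-fold, Fdps 3.95-fold and Sqle 3.38-fold. Just past the 2-fold line lay Scd2 at 2.07-fold and Msmo1 at 2.11-fold lower, and just short of it Dhcr7 at 1.86-fold lower.

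Split by role, 11 of 18 sterol enzymes, 4 of 6 regulators (Insig1, Srebf1, Srebf2 and Stard4) and 3 of 11 fatty acid enzymes (Fasn, Scd2 and Fads2) were more than 2-fold lower in replicate 3. The share over all tested genes was 7.80%. The median log2 ratios were -1.16 for the sterol enzymes, -1.26 for the regulators and -0.39 for the fatty acid enzymes. On this scale 28 of 35 genes had their lowest value in replicate 3, against 32.7% of all tested genes, and 1 of 35 had its highest value there, against 33.0%. On the TPM scale 29 of 35 were lowest in replicate 3, against 49.5% of all tested genes. In log2 TPM the median of all tested genes was itself shifted, by 0.10, 0.12 and -0.23 in replicates 1, 2 and 3, and that of the 35 genes was 0.85, 0.40 and -1.23.

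**Figure D2:**
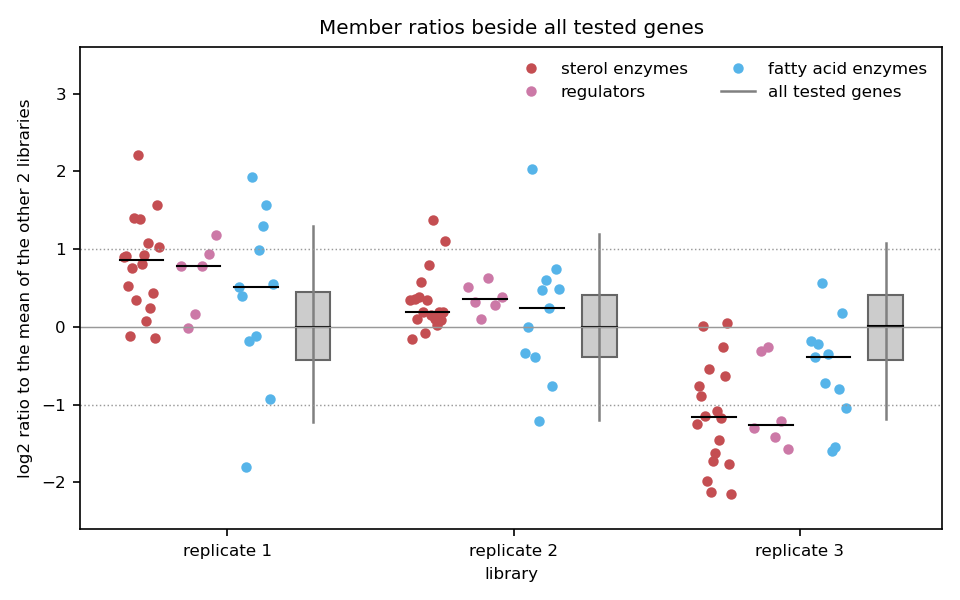
Log2 ratio of each gene in 1 library to the mean of the other 2 (TMM-scaled counts) for the 18 sterol enzymes, 6 regulators and 11 fatty acid enzymes, with black bars at their medians; grey boxes give the quartiles of all 11886 tested genes and grey lines their range from the lowest to the highest 5%. In replicate 3 the sterol enzymes centre on -1.16 and the regulators on -1.26, below the grey box, and the fatty acid enzymes on -0.39.

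For these genes replicates 1 and 2 were closer to each other than either was to replicate 3. In replicate 1, 10 of 35 genes were more than 2-fold higher (background 8.93%) and 1, Acss2, was more than 2-fold lower (background 7.67%). The count of higher genes was 3 when replicate 1 was compared with replicate 2 alone, where 10.2% of all tested genes were as much higher, and 21 against replicate 3 alone, where 11.5% were. In replicate 2, 3 of 35 genes were more than 2-fold higher, namely Mvd, Tm7sf2 and Acss2 (background 7.48%), and Elovl6 alone was more than 2-fold lower (background 7.13%). The highest value fell in replicate 1 for 26 of 35 genes (background 34.7%) and in replicate 2 for 8 (background 32.3%). The lowest fell in replicate 1 for 4 of 35 (background 34.5%), Ebp, Sc5d, Acss2 and Scd1, and in replicate 2 for 3 (background 32.9%), Acaca, Elovl6 and Elovl5. The SD of log2 counts over the 3 libraries had a median of 0.736 for the 35 genes and 0.415 for all tested genes. With 1 library left out, the median for the 35 genes was 0.258 without replicate 3, 0.603 without replicate 1 and 0.907 without replicate 2. The medians of all tested genes were then 0.313, 0.335 and 0.355.

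Genes next to the pathway are set against the same background of 7.80% of all tested genes more than 2-fold lower in replicate 3, and counts of 0 of 8 or 1 of 15 are near it. The 8 genes that cleave, hold or degrade SREBP pathway proteins, such as the proteases Mbtps1 and Mbtps2, had median log2 ratios of 0.02, -0.08 and 0.03 in replicates 1, 2 and 3, and 0 of 8 were more than 2-fold lower in replicate 3. Pgrmc1 was the highest of the list with a mean of 63.5 TPM and Rnf139 the lowest with 14.1 TPM. Of 12 genes that use isoprenoids for protein prenylation, dolichol or ubiquinone, 2 were more than 2-fold lower in replicate 3. Those were Icmt and Rce1, named after their values were seen, with log2 ratios of -1.13 and -1.05. The highest of that list was Nus1, a subunit of the dolichol-making enzyme, at 46.6 TPM, and the lowest Pdss2, of ubiquinone synthesis, at 3.50 TPM. Of 15 genes for citrate, NADPH and acyl-CoA supply 1 was more than 2-fold lower in replicate 3. This was Aacs, which makes acetoacetyl-CoA for lipid synthesis, with 19.9, 17.1 and 4.41 TPM, also named after its values were seen. The same list ran from 8.69 TPM for Mcat to 274 TPM for Pgd.

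Cholesterol uptake and storage genes were high throughout, and 3 of 5 LXR targets were more than 2-fold lower in replicate 1. The 8 uptake and storage genes had a median level of 259 TPM, from 46.6 TPM for Stard3 to 861 TPM for Lipa, the lysosomal acid lipase. Of these, 0 of 8 were more than 2-fold lower in replicate 3, near the background of 7.80%. Abca1, a cholesterol exporter and the classic LXR target in macrophages, had 77.9, 135 and 161 TPM in replicates 1, 2 and 3. Its partner Abcg1 had 18.4, 91.6 and 90.4 TPM. With Mylip, Lpcat3 and Smpdl3a these 5 LXR targets had median log2 ratios of -1.06, 0.07 and 0.98 in replicates 1, 2 and 3. All 5 were lowest in replicate 1 on the count scale, against 34.5% of all tested genes. More than 2-fold lower there were 3 of 5 (background 7.67%), while Lpcat3 had a log2 ratio of -0.40 and Smpdl3a of -0.14. In replicate 3, 4 of 5 had their highest value (background 33.0%) and 2 of 5 were more than 2-fold higher (background 6.09%). On the TPM scale Smpdl3a, with 219, 244 and 191 TPM, was lowest in replicate 3. Their list with the receptors ran from 32.3 TPM for Rxra to 218 TPM for Smpdl3a. Of 4 oxysterol enzymes, Cyp7b1 was at 0 in every library and Cyp27a1, the highest, had 7.82, 112 and 39.1 TPM.

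Most genes of a list for the carbohydrate response and lipogenic partners were below 1 TPM. Mlxipl, which encodes the carbohydrate response factor ChREBP, had at most 0.02 TPM, and Thrsp, a lipogenic partner protein of liver and fat, was at 0 in all libraries. In all, 8 of the 11 genes of that list were below 1 TPM everywhere. Its highest gene was Mid1ip1, a partner of acetyl-CoA carboxylase, with 93.4, 72.1 and 41.9 TPM.

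Other gene programmes also differed between the libraries, in other orders. The 12 interferon-stimulated genes had median log2 ratios of -1.22, 2.02 and -0.74 in replicates 1, 2 and 3, and the 12 cell cycle genes 1.77, -2.30 and 0.49. The 5 neutrophil markers that passed the filter had 0.33, -2.85 and 2.52. The 10 macrophage markers had 0.09, 0.28 and -0.41. The part of these differences, of depth and of library quality in the values of the 35 genes was not tested.

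**Figure D3:**
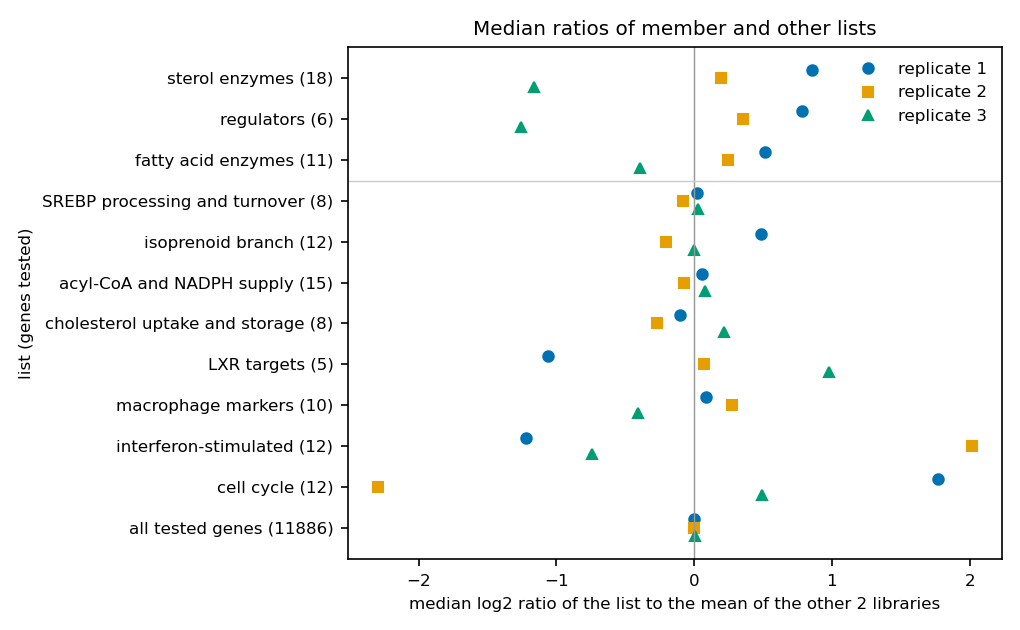
Median log2 ratio of each gene list in 1 library to the mean of the other 2 (TMM-scaled counts), with the number of genes tested in brackets; the 3 lists above the line make up the 35 genes. Sterol enzymes and regulators lie lowest in replicate 3, at -1.16 and -1.26, LXR targets lowest in replicate 1, at -1.06, and interferon-stimulated genes highest in replicate 2, at 2.02.

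Of the Srebf1 transcripts for the long and the short protein form, the long one was the more abundant in every library. Srebf1-201 encodes 1134 residues and starts at position 60220604 of chromosome 11, and Srebf1-207 encodes 1022 residues and starts at position 60210465. Srebf1-201 carries 24 more residues at its N-terminus than Srebf1-207 before the sequence they share. At that end this is the layout of SREBP-1a and SREBP-1c, and the longer activation domain makes SREBP-1a the stronger activator. The full lengths differ by more than 24 residues, so the 2 proteins also differ outside the N-terminus. Srebf1-207 is also the shorter transcript, with 3177 bases against 4299. The effect of these differences on the shares below was not tested. Srebf1-201 had 17.7, 17.5 and 4.82 TPM in replicates 1, 2 and 3, and Srebf1-207 had 2.80, 0.43 and 0.21 TPM. Srebf1-201 made up 86.4%, 97.6% and 95.8% of these 2 transcripts, or 93.3% ± 6.05 (SD, n = 3). In the kallisto-format table these shares were 74.0%, 86.7% and 83.1%. Of all Srebf1 transcripts together Srebf1-201 held less, with 72.9%, 67.9% and 47.5% in the RSEM-format table and 46.2%, 34.3% and 32.6% in the kallisto-format table. Much of the rest lay in transcripts annotated as processed, such as Srebf1-210 with 0, 3.89 and 2.78 TPM in the RSEM-format table. The kallisto-format table gave Srebf1-210 3.52, 6.30 and 3.79 TPM. A further protein-coding transcript, Srebf1-203, had 0.87, 1.30 and 0.64 TPM in the RSEM-format table and exceeded Srebf1-207 in replicates 2 and 3. In the kallisto-format table it had 0.44, 0.58 and 0.44 TPM, below Srebf1-207 with 3.92, 1.73 and 0.82 TPM in every library.

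In 30 of 35 genes the most abundant transcript was the same in every library and both transcript tables, though its share of the gene varied. Insig1-201, for example, held 97.2%, 96.4% and 97.6% of Insig1 in the RSEM-format tables. Fads1-201, named after its values were seen, held 94.6%, 97.4% and 50.1% of Fads1 in the same tables, where Fads1-202 held 48.2% in replicate 3. In the kallisto-format tables these 2 held 56.8% and 32.5% in replicate 3. The 5 others were Hmgcs1, Mvk, Lss, Acly and Fasn. In Acly, Acly-201 had 35.8, 25.1 and 0.14 TPM and Acly-207 had 6.35, 18.7 and 27.9 TPM in replicates 1, 2 and 3 of the RSEM-format tables. In the kallisto-format tables Acly-201 had 26.5, 21.8 and 3.65 TPM and Acly-207 had 1.06, 7.34 and 23.0 TPM. In Mvk the most abundant transcript was Mvk-202 in replicate 3 and Mvk-201 in the other 2 libraries, in both tables. In Hmgcs1 the 2 tables differed in replicate 3 only, and in Lss likewise.

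In the RSEM-format tables, transcripts annotated as retained introns took over 15 points more of 4 genes in replicate 3 than in either other library. In the kallisto-format tables this held for 3 of them, without Lss, whose share was highest in replicate 3 by less than 15 points. Fasn had 36.4%, 31.5% and 72.8% of its TPM in such transcripts in replicates 1, 2 and 3, and its protein-coding transcripts had 22.0, 13.5 and 3.87 TPM. Scap had 3.43%, 0% and 44.8%, almost all of it Scap-202, a transcript of 358 bases with 8.35 TPM in replicate 3 and 0 in both others, beside the coding Scap-201 of 4227 bases with 15.8, 15.5 and 10.1 TPM. Srebf2 had 20.3%, 20.0% and 43.6%. In the kallisto-format tables Scap had 45.5% and Srebf2 43.1% in replicate 3, Fasn had 14.8%, 11.0% and 56.1%, and Lss, with 19.6%, 29.4% and 46.3% in the RSEM-format tables, had 27.9%, 23.9% and 32.5%.

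These 4 genes are 17.4% of the 23 in the set that have a retained-intron transcript, and 6.18% of 6162 detected protein-coding genes with one likewise exceeded both other libraries by more than 15 points in replicate 3. By the kallisto-format values, 3 of 23 (13.0%) passed the same limit, against 5.36% of the 6162 genes. The limit of 15 points was chosen after the values were seen. Over all genes, retained-intron transcripts took 2.74%, 3.99% and 4.06% of TPM in replicates 1, 2 and 3. With counts of protein-coding transcripts alone, 18 of 35 genes were more than 2-fold lower in replicate 3, against 8.18% of all tested genes, and the median log2 ratio was -1.05.

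**Figure D4:**
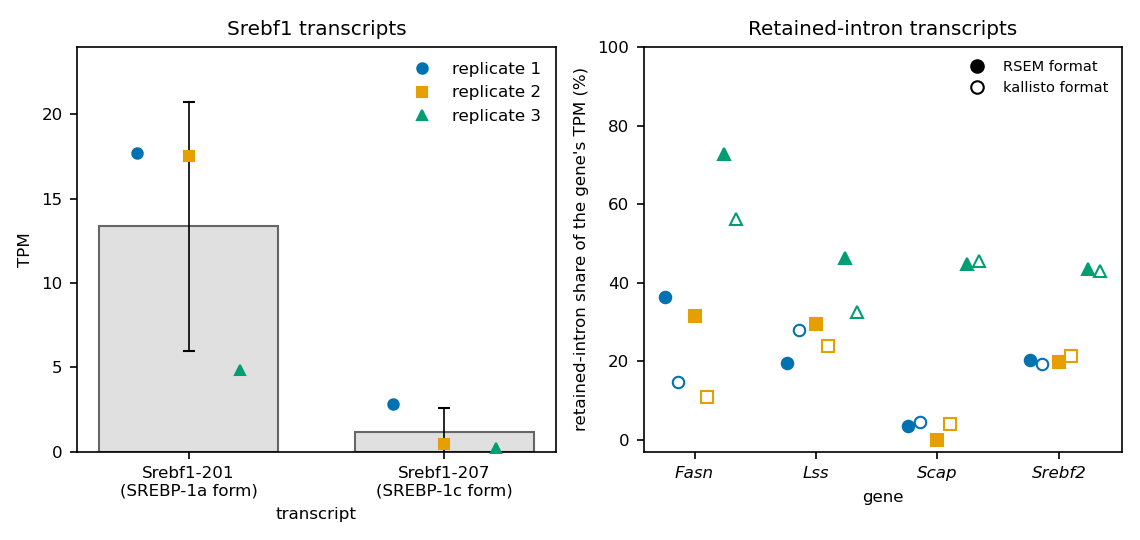
Left, TPM of the Srebf1 transcripts of the long and the short form in the 3 libraries, with bars at the mean and error bars of 1 SD (n = 3). Right, share of each gene's TPM in retained-intron transcripts for Fasn, Lss, Scap and Srebf2, with filled symbols for the RSEM-format and open symbols for the kallisto-format tables; colours and shapes mark replicates as on the left. Replicate 3 lies highest in all 4 genes, at 44.8% for Scap in the RSEM-format table and with the smallest gap in Lss.

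Levels from the 2 quantification programs were close for nearly all of the genes once a shift shared with all detected genes was removed. Before that, at equal sums, the 35 genes had a median log2 ratio of kallisto-format to RSEM-format TPM of -0.22, -0.25 and 0.08. Those values are for replicates 1, 2 and 3, where all detected genes had -0.16, -0.18 and 0.10. In TPM as deposited, the median level of the set was 14.1 in the kallisto-format tables, against 20.1 in the gene tables. After removal of the median over detected genes, the median log2 ratio of kallisto-format to RSEM-format TPM was -0.07, -0.07 and -0.02 over the 35 genes in replicates 1, 2 and 3. In replicate 2 only, 2 of the 35 were more than 1.5-fold apart, Lss with a log2 ratio of 0.60 and Srebf1 with 0.74, against 5.93% of detected genes. The SD of the count estimate given with the RSEM-format tables was at most 1.80% of the count for any of the 35 genes, which covers the assignment of reads within a library and not the spread between libraries.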

How the data were processed

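Polyadenylated RNA of 3 libraries in 1 group was used, grouped by their labels. The deposited gene tables hold expected counts (estimated counts that need not be whole), TPM and FPKM in the format of RSEM, per the file headers; per the labels the build is mm10, and the deposited file lists give GENCODE annotation M21. The authors' transcript tables in RSEM format also hold each transcript as a percent of its gene; shares were recomputed here from TPM. Estimated counts and TPM of the kallisto-format tables were deposited per transcript and summed here per gene. For the aligner, the program versions and strand, the answer is not given in the sources used here.

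Counts were rounded, filtered with filterByExpr and scaled by TMM in edgeR 4.0.16 (R 4.3.3), with a prior count of 0.5; DESeq2 1.42.0 size factors served as an alternative. A gene's library ratio is its scaled count over the geometric mean of the other 2 libraries, and counts as higher or lower beyond 2-fold. With 1 group no test was possible. The calculation of ratios was checked on simulated counts with known changes. Their spread between libraries was set in advance and not taken from these data, so the check covers the calculation only. Alternatives were other scalings, pseudocounts, filters, count tables, folds and TPM thresholds, and leaving out each library. All 35 genes are named, with the highest and lowest gene of each further list. The genes and lists were chosen with earlier results of these data known. Some genes of these pathways are not reported here. Totals ranged from 27946070 to 53447437 counts, and the precision of levels is limited by the spread between libraries rather than by counting.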

Additional observations from a re-analysis of the deposited data

How the results depend on the processing

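The median log2 ratio of the 35 genes in replicate 3 kept its direction under every alternative run and lay between -1.28 and -0.85. Between 16 and 21 of the 35 were more than 2-fold lower there, against between 7.31% and 14.5% of all tested genes, and 23 were more than 1.5-fold lower, against 18.0%. Of 350 ratios of single genes in replicate 3 that were recomputed, 331 moved by less than the gene's own SD between libraries and 19 moved by more. That SD includes the departure of replicate 3 itself, so it is a wide limit for genes low there. Of the ratios more than 2-fold lower, 0 changed sign. Among the others 11 ratios of 7 genes did: Scap was 0.19 in log2 TPM, Acaca 0.11, Elovl6 0.32 and Scd1 -0.38 without replicate 1, and Acss2 1.05 without replicate 2. Ebp, at 0.01 before, was as low as -0.36, in log2 TPM, and Sc5d was -0.03 without replicate 1. The count of genes more than 2-fold higher in replicate 1, 10 of 35, moved between 3 and 21 when 1 library was left out, and at a fold of 1.5 it was 19, against 19.4% of all tested genes. The median log2 ratio in replicate 2, 0.28, changed sign to -0.18 without replicate 3, because it was then set against replicate 1 alone, and was 0.85 without replicate 1. The median SD of log2 counts, 0.736, lay between 0.258 and 0.907 when 1 library was left out. The share of the long form of Srebf1 was 93.3% from the RSEM-format tables and 81.3% from the kallisto-format tables, an alternative added after seeing the data, as were protein-coding counts alone, the removal of the median between programs and leaving out Fdft1; the cause was not tested. The count of genes at or above the threshold in every library was 35 at 0.5 TPM and 26 at 5 TPM, against 34 at 1 TPM. No paired analysis was possible because there was 1 group.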
